A study of Rattus norvegicus with 10 samples.

Results

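The mammary glands of 5 Brown Norway (BN) rats were compared by the letter that opens each animal ID, which was S for 3 rats and H for 2 rats. These 5 arrays are taken from a set of 10, of which the other 5 are from ACI rats. BN S rats 1, 2 and 3 carry the IDs S26, S27 and S28, and BN H rats 4 and 5 carry H5726 and H5727. All were female, received 17β-estradiol (E2) from subcutaneous implants from 9 weeks of age, and were killed after 12 weeks of treatment. What the letters stand for is not given in the labels, so a shipment, a housing group, a dissection or a hybridization round that follows them cannot be told apart from the letter itself. The ACI rats, an inbred strain of the label ACI/SegHsd, had the same treatment and also fall into 3 S and 2 H animals. They serve here only to show whether a difference between the letters was shared by both strains. Each array holds the RNA of the whole gland of a single rat, on an Affymetrix rat genome array, as GCRMA values on the log2 scale for 31042 probe sets after 57 control probe sets were set aside.

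A whole mammary gland is a mixture. Luminal and basal epithelium lie in a pad of fat cells together with fibroblasts, vessels and immune cells, and a dissected gland can also hold a lymph node or a strip of the skin muscle beneath it. Estradiol drives the epithelium through its receptor and through paracrine factors. On this kind of array the labelled copy of each transcript is made from the poly-A tail inward, so that probes near the 3′ end read the first part of the copy and probes nearer the 5′ end read the last part. Spiked bacterial transcripts with a poly-A tail go through the whole labelling reaction with the sample. A separate mixture of labelled transcripts is added just before hybridization. A few control probe sets read the 3′ end, the middle and the 5′ end of the same transcript.

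The BN S arrays stood apart from the BN H arrays in the spike, hybridization and beta-actin control probe sets, and from the ACI arrays in many of these. Some 3′ spike probe sets did overlap with ACI rats, such as that of PheX at 6.86, 7.09 and 6.35 in BN S rats and 6.68 to 7.18 in ACI rats. The 5′ probe set of beta-actin read 6.82, 6.43 and 7.81 in BN S rats, 10.64 and 11.52 in BN H rats, and 10.21 to 11.73 in ACI rats. Its 3′ probe set read 11.60, 11.23 and 12.05 in BN S rats against 13.85 and 13.97 in BN H rats. Both ends were therefore lower in every BN S rat, and the gap between them, 3′ minus 5′, was wider, at 4.78, 4.80 and 4.24 against 3.21 and 2.45. The 4 poly-A spikes, which do not come from the animal, had a mean 3′ minus 5′ gap of 3.50, 3.21 and 2.62 in BN S rats, of 1.83 and 1.96 in BN H rats, and of 1.04 to 1.70 in ACI rats. All 24 poly-A spike probe sets were lower in every BN S rat than in either BN H rat, with H minus S differences of 0.72 to 2.93. All 18 hybridization control probe sets were too, by 1.13 to 2.45. In ACI rats the same differences ran from -0.41 to 0.37 for the spikes and from -0.37 to 0.98 for the hybridization controls. GAPDH had overlapping gaps, of 2.03, 1.60 and 0.94 in BN S rats and of 1.07 and 0.39 in BN H rats. These technical readings thus moved with the letter in BN rats, and their part in the results that follow was not tested. Where the beta-actin gap is used as a covariate below, it follows the letter in BN rats and so cannot be told apart from it.

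**Figure D1:**
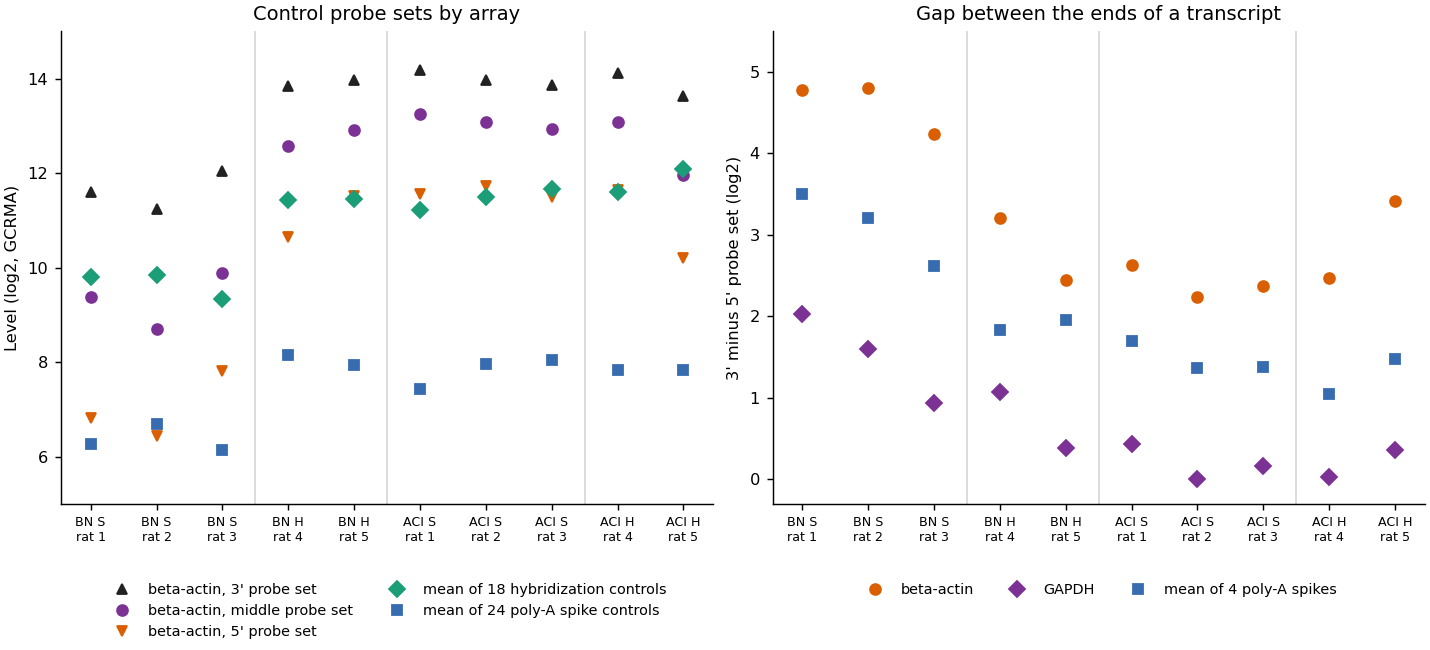
Left, levels on the log2 scale of the 3′, middle and 5′ probe sets of beta-actin and the means of 18 hybridization and 24 poly-A spike control probe sets, with 1 column of points for each of the 10 arrays. Right, the 3′ minus 5′ gap of beta-actin, GAPDH and the mean of 4 poly-A spikes on the log2 scale. The 3 BN S arrays have the lowest levels and, for beta-actin and the spikes, the widest gaps, such as 4.24 to 4.80 for beta-actin against 2.24 to 3.42 on the other arrays.

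Over all probe sets the BN arrays also sorted by letter. Pearson's r between arrays was 0.980 to 0.992 within BN S, 0.985 within BN H, and 0.957 to 0.978 between the series. Between rats of different letters, 16.7% to 29.1% of the 14523 probe sets with a mean above 4 differed at least 2-fold, against 2.86% to 11% within BN S and 9.32% within BN H. For ACI rats of different letters the share was 2.176% to 12.0%. Series means differed at least 2-fold at 2825 of these probe sets in BN rats, or 19.5%, and at 400 in ACI rats, or 2.75%. Of the 2825, 815 were higher in H and 2010 were higher in S. The median H minus S difference over these probe sets was -0.18 in BN rats and 0.02 in ACI rats, and in BN rats it became 0.04 after quantile normalization and 0.06 after each array was centred on its expressed probe sets. BN H rat 5 had the lowest upper quartile of the 10 arrays, at 6.69 against 7.03 to 7.11 in the other BN rats.

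With limma fitted to the 5 BN arrays, 346 of 31042 probe sets were called at a Benjamini-Hochberg adjusted p under 0.05, which is 1.11%. Of these, 133 (0.428%) were higher in H and 213 (0.686%) were higher in S. Called differences had a median size of 1.21 (log2), 208 reached 2-fold and 54 were under 0.5. All 5 BN values lay below 4, taken here as near background, for 41 of the 133 and for 11 of the 213. An unadjusted p under 0.05 was reached by 5241 probe sets. An exact permutation test of 3 rats against 2 cannot give a two-sided p below 0.2 for any single gene, so calls rest on the model. To the 3 residual degrees of freedom of each probe set limma added a prior worth 0.37, so that the spread of that probe set among 5 rats counted for most, and Student's test, which shares no spread, called 32. Among the 14526 probe sets whose mean was 4 or more the same fit called 2007, or 13.8%, of which 557 (3.83%) were higher in H and 1450 (9.98%) higher in S. Only 213 probe sets were called both ways. The count ran from 79 without BN S rat 2 to 3199 without BN H rat 4, and without either BN H rat most calls were higher in H, with 2025 of 3199 without rat 4 and 867 of 1204 without rat 5.

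Counted by gene, with each of 14217 genes read by its probe set of the highest mean, 162 genes were called (1.14%), 70 higher in H (0.492%) and 92 higher in S (0.647%). The genes described next are the 12 called genes with the largest difference in each direction whose series did not overlap and whose higher series had a mean of at least 6. Leaving out any 1 S rat lost most of these calls. A fit with fewer rats also has less to estimate the spread from, so a lost call does not show that 1 rat decided it. Of the 24 genes and 4 list members described further below, 2 stayed called without BN S rat 1, 1 without S rat 2, 6 without S rat 3, 24 without H rat 4 and 11 without H rat 5.

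Among genes higher in BN S rats, *Synj1*, a phosphoinositide phosphatase of endocytosis, read 8.50, 8.18 and 8.40 in S rats and 5.09 and 5.28 in H rats, an H minus S difference of -3.17 ± 0.13 (SE, adjusted p = 0.0235). *Mdm4*, an inhibitor of p53, read 8.20, 8.15 and 8.71 against 5.26 and 5.39, a difference of -3.03 ± 0.22 (adjusted p = 0.0474). The 5 ACI rats lay between 4.24 and 5.36 for *Synj1* and between 4.71 and 5.92 for *Mdm4*, around the BN H values and below every BN S value. *Mmrn1*, the platelet and endothelial protein multimerin 1, read 8.82, 8.71 and 8.39 in S rats and 6.09 and 6.01 in H rats (-2.59 ± 0.16, adjusted p = 0.0367). *Oxr1*, an oxidation resistance gene, read 11.03, 10.86 and 10.71 against 8.64 and 8.33 (-2.38 ± 0.16, adjusted p = 0.0404). *Luzp1*, which encodes a leucine zipper protein, read 7.02, 7.13 and 6.82 against 4.89 and 4.70 (-2.19 ± 0.13, adjusted p = 0.0347). For these 3 genes too, every ACI rat lay below the BN S rats.

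Of the 12 genes higher in S, 2 had both H values below 4, the level taken here as near background, so that their differences have only a lower bound and no rank among the others. *Ikzf2*, which encodes the lymphocyte transcription factor Helios, read 6.43, 5.99 and 5.72 in S rats and 2.48 and 2.54 in H rats, at least 4.13-fold higher in S (adjusted p = 0.0449, limma). *Nars2*, the mitochondrial asparaginyl-tRNA synthetase, read 6.41, 6.54 and 6.29 in S rats against 3.40 and 3.05 in H rats, at least 5.33-fold higher in S (adjusted p = 0.0279). No ACI rat of either letter was above 4 for either gene, so that for these genes the BN S rats alone were above background.

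For other genes the ACI rats lay between the BN series. *Mtdh*, which encodes metadherin, had the smallest error of the group, with 10.54, 10.55 and 10.43 in S rats and 8.10 and 8.07 in H rats (-2.42 ± 0.05, adjusted p = 0.00639), and ACI rats ran from 9.09 to 9.60. *Hspa13*, an Hsp70 family member, read 8.56, 8.93 and 8.55 against 5.61 and 5.79 (-2.98 ± 0.17, adjusted p = 0.0325), with ACI rats at 6.52 to 7.01. *Ankhd1*, an ankyrin repeat and KH domain protein, read 8.70, 8.61 and 8.94 against 6.23 and 5.97 (-2.65 ± 0.15, adjusted p = 0.0332). *Mast4*, a microtubule-associated kinase, read 7.01, 6.97 and 6.95 against 4.63 and 4.17 (-2.58 ± 0.16, adjusted p = 0.0373), and *Clcn3*, a chloride/proton exchanger of endosomes, read 10.19, 10.47 and 10.39 against 8.20 and 8.07 (-2.21 ± 0.11, adjusted p = 0.0308). All 5 ACI rats were above the BN H rats for each of these genes, and 2 ACI rats, both with a *Clcn3* value of 10.20, lay just above the lowest BN S value.

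Among genes higher in BN H rats, *Anp32a*, a nuclear phosphoprotein that binds histones, read 6.96, 7.07 and 7.34 in S rats and 10.43 and 10.54 in H rats, an H minus S difference of 3.36 ± 0.14 (SE, adjusted p = 0.0238). The ACI rats were scattered across that range, from 7.94 to 10.78. *Rnf25*, a RING ubiquitin ligase, read 4.44, 4.28 and 4.22 in S rats against 6.87 and 6.70 in H rats (2.47 ± 0.10, adjusted p = 0.0220), and *Rab5c*, a GTPase of early endosomes, read 5.96, 6.13 and 6.24 against 8.66 and 8.31 (2.38 ± 0.16, adjusted p = 0.0413). *Znrf3*, a ligase that removes Wnt receptors from the cell surface, read 6.98, 6.91 and 7.12 against 8.50 and 8.61 (1.55 ± 0.08, adjusted p = 0.0322). No S value reached an H value for any of these.

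*Cat* and *Phyh*, which encode peroxisomal enzymes, were in the same group. *Cat*, the catalase that breaks down hydrogen peroxide, read 10.11, 10.27 and 10.38 in S rats and 12.05 and 11.98 in H rats (1.76 ± 0.10, adjusted p = 0.0325). *Phyh*, which starts the breakdown of phytanic acid, read 8.24, 8.49 and 8.22 against 10.30 and 10.15 (1.91 ± 0.12, adjusted p = 0.0367). The 5 ACI rats lay above the BN S rats for both, at 11.35 to 11.79 and 9.10 to 9.55.

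*Tent2*, a cytoplasmic poly-A polymerase, read 6.95, 6.61 and 6.95 in S rats and 9.07 and 8.85 in H rats (2.12 ± 0.16, adjusted p = 0.0485). *Fmr1*, an RNA-binding regulator of translation, read 9.34, 9.21 and 9.25 against 11.29 and 10.91 (1.83 ± 0.14, adjusted p = 0.0497). These are the 2 genes of the group with adjusted p-values nearest the threshold. *Sertad3*, a transcriptional regulator, differed by 2.10 ± 0.11 (adjusted p = 0.0322), *B3gat3*, a glucuronosyltransferase of proteoglycan synthesis, by 1.66 ± 0.02 (adjusted p = 0.00172), and *Swi5*, a homologous recombination protein, by 1.53 ± 0.10 (adjusted p = 0.0367). *Actr2-ps1* is annotated as a pseudogene of *Actr2*, with which its probes may share sequence, so its difference of 1.58 ± 0.09 (adjusted p = 0.0322) cannot be assigned to one of them.

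**Figure D2:**
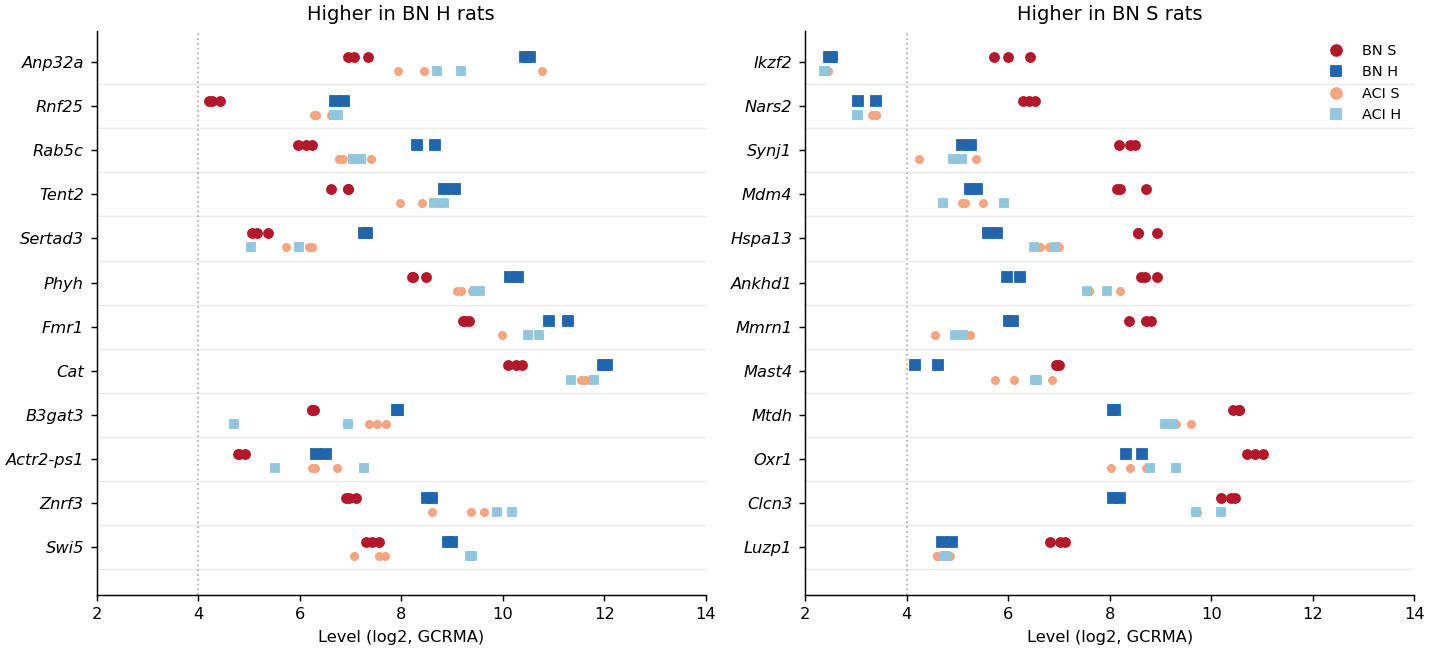
Levels on the log2 scale of the 12 genes with the largest called differences higher in BN H rats (left) and higher in BN S rats (right), with 1 point per rat, circles for S, squares for H, dark colours for BN and pale colours for ACI. The dotted line marks 4, the level taken as near background. No BN S point overlaps a BN H point, and ACI S and ACI H points are mixed for most genes, with *Swi5* the clearest exception.

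Probe sets of the same gene could give different answers. Of the 346 called probe sets, 91 belonged to 89 genes for which another probe set had the higher mean. Of these 91, 51 were higher in S and 40 higher in H. The probe set of the highest mean was itself called for 1 of these 91, *Zfp148*, a zinc finger transcription factor, and in the opposite direction. Of all genes, 1.14% had that probe set called. The *Zfp148* probe set of the highest mean differed by 1.11 ± 0.08 (adjusted p = 0.0483) and the other by -1.75 ± 0.13 (adjusted p = 0.0487). The 51 probe sets higher in S had a median difference of -1.81, while the probe sets of the highest mean of the same genes had a median of -0.18. Since the 51 were chosen by their calls, part of this gap follows from the choice.

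The following examples were chosen after their values were seen. *Ap3s1*, a subunit of the AP-3 adaptor complex of vesicle sorting, had a probe set at 7.11, 7.61 and 7.26 in S rats and 2.26 and 2.23 in H rats, at least 10.03-fold higher in S (adjusted p = 0.0195). Its other probe set read 9.55, 9.73 and 9.77 in S rats and 10.21 and 9.82 in H rats (0.33, adjusted p = 0.48), with no drop in H rats. *Rbm39*, a splicing factor, had probe sets at -3.02 ± 0.07 (adjusted p = 0.00975) and -2.15 ± 0.15 (adjusted p = 0.0436) and another at 0.24 (adjusted p = 0.58). *Srpk2*, a kinase of splicing factors, had one at -3.47 ± 0.18 (adjusted p = 0.0308) and another at -0.15 (adjusted p = 0.31). *Aplp2*, a relative of the amyloid precursor protein, had one at -3.26 ± 0.23 (adjusted p = 0.0449) and another at 1.07 (adjusted p = 0.17). *Pabpn1*, the nuclear poly-A binding protein, ran the other way, with 5.69, 5.81 and 5.92 in S rats against 8.14 and 8.43 in H rats at one probe set (2.48 ± 0.13, adjusted p = 0.0319) and 9.04, 9.25 and 9.03 against 8.46 and 8.45 at the other (-0.65, adjusted p = 0.093). The other probe set of each of these 5 genes was not called, although its series did not overlap either. In *Srpk2* it differed in the same direction as the called one, and in *Ap3s1*, *Rbm39*, *Aplp2* (9.65, 9.70 and 10.18 in S rats against 11.07 and 10.76 in H rats) and *Pabpn1* in the opposite direction.

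**Figure D3:**
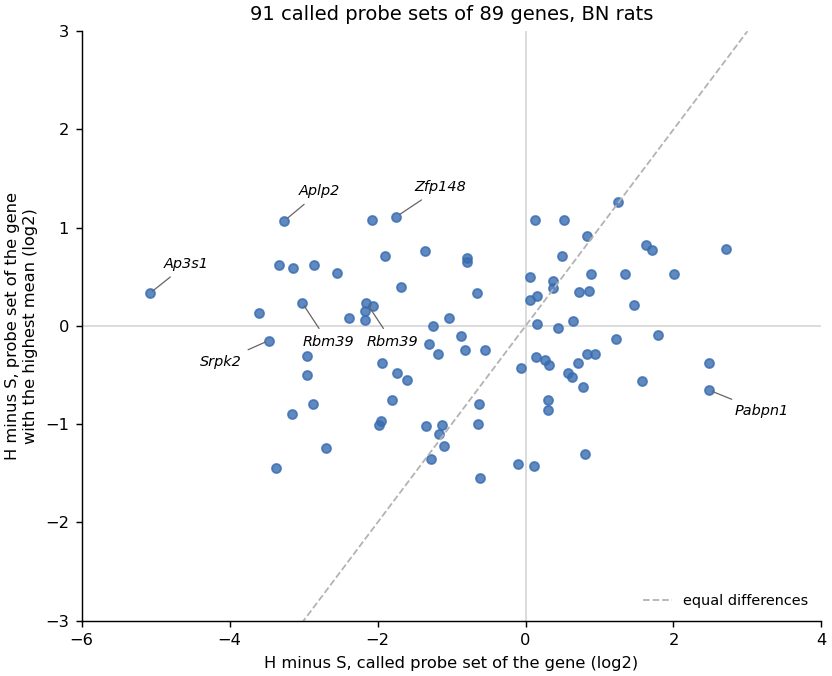
H minus S difference in BN rats, on the log2 scale, of the 91 called probe sets that do not have the highest mean of their gene (horizontal axis) against that of the probe set with the highest mean of the same gene (vertical axis). Points of equal difference would lie on the dashed line, and many probe sets between -2 and -5 on the horizontal axis lie near 0 on the vertical one.

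The spread within genes was wider in BN than in ACI rats beyond the called probe sets. For 1901 genes with at least 2 probe sets above a mean of 4, the range of H minus S across the probe sets of a gene had a median of 0.72 in BN rats and 0.30 in ACI rats. It was at least 2 for 150 genes (7.89%) in BN rats and for 16 genes (0.842%) in ACI rats, and it was wider in BN rats for 1427 of the 1901 genes. Where the probe sets lie along the transcripts is not part of the data used here. Probe sets to which the annotation gives no gene symbol also leaned to S. With the filter on low values, 378 of 2440 of them were called higher in S (15.5%) and 71 higher in H (2.91%), against 8.39% and 3.55% of the probe sets that represent a gene.

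Marker and function lists were read by gene, each gene by its probe set of the highest mean, and 31 of 34 lists held no called member. Across the 687 measured genes of the lists, 4 were called, where 1.14% of all genes were. *Per3*, a component of the circadian clock, read 6.17, 6.48 and 6.28 in S rats and 4.08 and 4.21 in H rats (-2.17 ± 0.12, adjusted p = 0.0325). Among the other 16 measured clock genes none was called. *Cox6c*, a subunit of cytochrome c oxidase, read 13.26, 13.24 and 13.28 against 12.52 and 12.49 (-0.76 ± 0.02, adjusted p = 0.00975), while *Ndufb8* of respiratory complex I went the other way, with 7.43, 7.53 and 7.40 against 8.10 and 8.10 (0.65 ± 0.05, adjusted p = 0.0480, and 0.0539 with filtering). The respiratory chain list of 37 genes had a median H minus S of -0.19, beside -0.16 for all genes whose probe set had a mean above 4. *Prx*, the myelin protein periaxin, read 3.70, 3.79 and 3.77 against 4.72 and 4.84, at least 1.72-fold higher in H (adjusted p = 0.0319). With the filter on low values, 62 of 557 list genes were called, 45 higher in S and 17 higher in H, where 8.39% and 3.55% of all genes were called in these directions.

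The largest shift of any list was that of skeletal muscle. The mean of its 35 genes was 3.41, 5.49 and 3.21 in BN S rats, 5.60 and 8.0 in BN H rats and 5.06 to 8.72 in ACI rats, and the median H minus S over its members was 3.0 in BN rats and 1.18 in ACI rats. *Ckm*, the creatine kinase of muscle, read 2.23, 7.02 and 2.23 in S rats and 7.87 and 11.10 in H rats, and *Myh4*, a fast myosin heavy chain, read 2.55, 7.68 and 2.56 against 7.43 and 10.22. S rat 2 thus resembled H rat 4, and no member was called (*Ckm*, 5.66 ± 2.25, adjusted p = 0.377). Of the defining markers, *Acta1* had levels of 6.87 to 10.55 in S rats and 10.50 and 13.48 in H rats, and *Myh7*, the slow myosin, was at 2.23 in all 5 BN rats. The list median was 1.30 without BN H rat 5 and 4.53 without BN H rat 4, and with the beta-actin 3′ minus 5′ gap as a covariate over the 10 arrays it was -0.08. With filtering, *Des*, the intermediate filament desmin, with 5.39, 5.61 and 5.37 in S rats and 7.53 and 9.17 in H rats (adjusted p = 0.0276), and the Z-disc gene *Ldb3* (adjusted p = 0.0465) were called. In RNA from a whole gland, fewer cells of a type and less RNA per cell cannot be told apart.

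The adipocyte list had a higher mean in both H rats than in any S rat. The mean of its 23 genes was 8.99, 9.30 and 8.87 in S rats and 9.71 and 9.46 in H rats, with a median H minus S of 0.37 in BN rats, against -0.35 in ACI rats, and all H values above all S values for 10 genes, where 12.7% of all genes had that order. That share is over all 14217 genes, of which 9363 had a mean of at least 4. It may be too low a reference for lists of mostly expressed genes. None of the 23 adipocyte genes was called over all probe sets by its probe set of the highest mean. Another probe set of *Dgat2* was called higher in H (1.63 ± 0.08, adjusted p = 0.0279, limma). The brightest, *Car3*, carbonic anhydrase 3, ran the other way without overlap, at 14.49, 14.76 and 14.55 in S rats against 14.45 and 14.26 in H rats (-0.24 ± 0.12, adjusted p = 0.488). With filtering 4 of 21 were called higher in H, where 3.55% of all genes were, and none higher in S, where 8.39% were. The largest difference was that of *Lipe*, hormone-sensitive lipase, with 5.21, 5.95 and 5.93 against 9.10 and 9.53 (3.62 ± 0.33, adjusted p = 0.0115). *Cebpa*, an adipogenic transcription factor, *Slc2a4*, the insulin-regulated glucose transporter, and *Agt*, angiotensinogen, were the other 3. The defining markers moved less, with *Adipoq* (adiponectin) at 12.63, 12.53 and 12.20 against 12.93 and 12.71, *Plin1* (perilipin) at 10.23, 10.57 and 9.69 against 10.83 and 10.12, and *Lep* (leptin) below 4 in all 5 rats.

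Epithelial markers were present in every BN rat. *Epcam*, the epithelial adhesion molecule, read 12.17, 12.27 and 12.47 in S rats and 12.24 and 12.31 in H rats, with a difference of -0.03 ± 0.11. The luminal keratin *Krt8* read 11.37, 11.85 and 11.97 against 10.88 and 10.83, and *Krt18* read 11.22, 11.60 and 11.78 against 10.50 and 10.65, neither called over all probe sets (adjusted p = 0.206 and 0.165). With filtering, 5 of 20 luminal genes were higher in S (*Krt18*, *Krt19*, *Krt7*, *Gata3* and *Prlr*), where 8.39% of all genes were, and 1 was higher in H (*Cldn7*, a tight junction claudin), where 3.55% were. *Krt19*, another luminal keratin, read 12.37, 12.89 and 12.93 against 11.58 and 11.39 (-1.25 ± 0.23, adjusted p = 0.0338). Of the basal markers, *Krt14* read 9.74, 10.51 and 10.66 against 9.20 and 9.20 (adjusted p = 0.272) and *Krt5* and *Acta2* overlapped between the series. With filtering, of 16 basal genes *Myh11*, a smooth muscle myosin, and *Egfr*, the epidermal growth factor receptor, were higher in S, and *Jag1*, a Notch ligand, was higher in H. The medians of the luminal and basal lists were close to 0, at -0.09 and -0.11.

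The matrix and cell cycle lists had lower means in both H rats than in any S rat, an order not particular to them. It also held for the macrophage, basal, milk protein, cholesterol synthesis, hypoxia and involution and acute phase lists and for the genes named by the study. Some of these gaps were small. The highest H mean and the lowest S mean were 8.24 and 8.27 for the basal list, 8.083 and 8.085 for involution and acute phase, and 7.66 and 7.67 for the genes named by the study. The 33 collagen and fibrillar matrix genes had means of 8.35, 8.83 and 9.13 in S rats and 8.32 and 7.67 in H rats, and a median H minus S of -0.79 against -0.11 in ACI rats. All H values lay below all S values for 14 genes, where 23.5% of all genes, those near background included, had that order. The median was -0.52 without BN H rat 5 and -0.97 without rat 4. With filtering 3 of 32, *Dcn* (decorin), *Fmod* (fibromodulin) and *Tnc* (tenascin C), were higher in S, where 8.39% of all genes were. *Dcn* read 13.14, 13.73 and 13.59 in S rats against 12.24 and 11.43 in H rats (-1.65 ± 0.36, adjusted p = 0.0346). *Col3a1*, the brightest of the list, read 13.36, 13.93 and 14.38 against 13.72 and 13.25, and overlapped.

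The 46 cell cycle genes had means of 6.41, 6.39 and 6.56 in S rats and 6.11 and 5.38 in H rats. All H values lay below all S values for 24 of them, where 23.5% of all genes, those near background included, had that order. The median H minus S was -0.50 in BN rats and 0.23 in ACI rats. *Pcna*, the sliding clamp of DNA replication, read 11.73, 11.57 and 11.42 against 10.44 and 9.83 (-1.44 ± 0.24, adjusted p = 0.117 over all probe sets and 0.0281 with filtering). *Ccnb1*, *Kif20a*, *Cenpf*, *Nusap1* and *Prc1*, which act in mitosis, were also higher in S with filtering, so that 6 of 40 were, beside 8.39% of all genes, and none was higher in H. Rat 5 was lower than rat 4 for each of these 6 genes. The median for the list stayed below 0 under quantile normalization (-0.26) and with the beta-actin gap as a covariate (-0.24), and was -0.34 without BN H rat 5 and -0.79 without rat 4.

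Lymphocyte list means overlapped between the series, and macrophage list means did not. The B and plasma cell list had means of 8.24, 7.33 and 4.60 in S rats and 7.57 and 7.29 in H rats, and the T cell list had 6.96, 6.08 and 4.22 against 6.59 and 6.01, so that S rat 3 was apart from the other 4 rats. *Ms4a1*, the B cell antigen CD20, read 11.47, 10.36 and 2.23 in S rats and 10.44 and 10.71 in H rats, and *Cd3e* of the T cell receptor complex read 9.62, 8.72 and 6.06 against 8.94 and 8.65. No member of the B cell, T cell, cytotoxic cell or MHC class II lists was called with either set of probe sets. The 19 macrophage genes had means of 9.79, 9.82 and 10.34 in S rats and 9.72 and 9.45 in H rats, without overlap. All H values lay below all S values for 9 of them, where 23.5% of all genes, those near background included, had that order. Their median H minus S was -0.30 in BN rats and -0.18 in ACI rats, and in BN rats it was -0.10 without H rat 5 and -0.51 without S rat 1. With filtering 1 was called, *C1qb*, a complement subunit, which was higher in H, and none was called higher in S. *Lyz2* (lysozyme) read 14.21 to 14.52 in S rats and 14.30 in both H rats. Of the granulocyte and mast cell list, *S100a8* and *S100a9*, which form calprotectin in neutrophils, were higher in S with filtering. They were 2 of the 5 members with a mean of at least 4, where 8.39% of all genes were called higher in S. The median of these 5 was -1.83, and high S values count towards that mean. Over all 17 measured members the median was 0. All H values lay above all S values for 3 members and below them for 3, where 12.7% and 23.5% of all genes had these orders. *S100a8* read 10.42, 9.72 and 8.91 in S rats against 4.59 and 4.79 in H rats (-4.99 ± 0.54, adjusted p = 0.0131), and *S100a9* read 12.41, 11.87 and 10.71 against 7.80 and 8.21 (-3.66 ± 0.63, adjusted p = 0.0211). Neither was called over all probe sets (adjusted p = 0.0718 and 0.121). *Mpo* and *Elane* belong to the same list, whose mean was 3.82 to 4.42 in S rats and 3.66 and 3.94 in H rats.

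**Figure D4:**
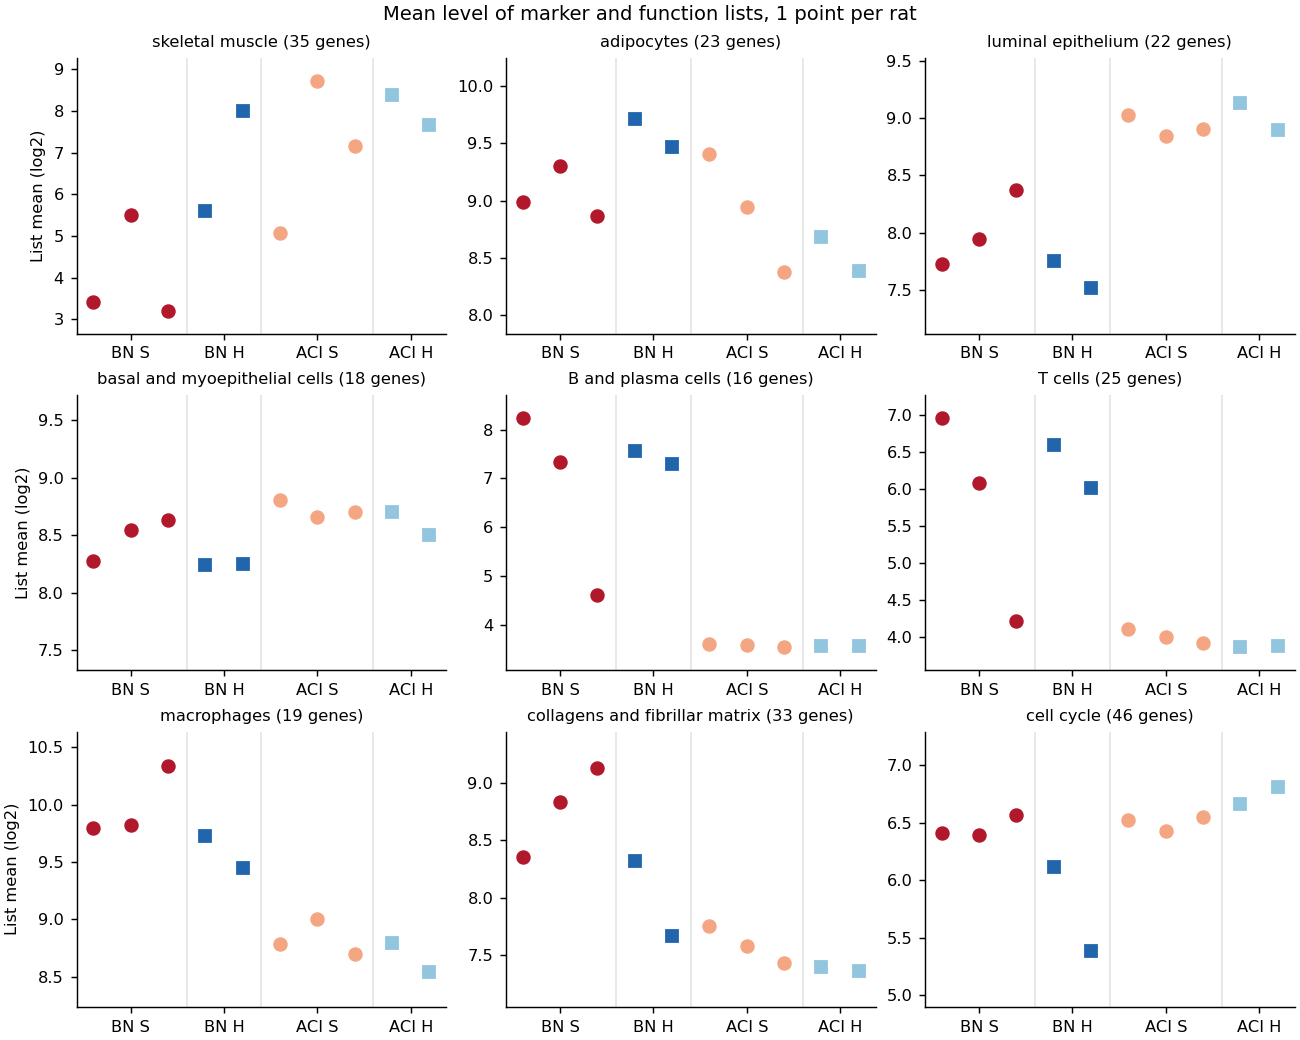
Mean level on the log2 scale of 9 marker and function lists, with 1 point per rat (red circles BN S, blue squares BN H, pale symbols ACI) and a separate vertical scale for each list that does not start at 0. In the cell cycle, collagen, macrophage and basal lists both BN H rats lie below every BN S rat, and in the adipocyte and skeletal muscle lists both lie above. In the B and T cell lists BN S rat 3 lies apart from the other 4 BN rats.

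Over all measured members, other lists had medians nearer 0. The median H minus S in BN rats was between -0.27 and 0.20 for interferon response, MHC class II presentation, hypoxia, heat shock and unfolded protein response, cholesterol synthesis, involution and acute phase, milk protein and secretory products, immediate early genes, glucocorticoid and fasting response, the circadian clock, hormone response, ribosomal proteins, red blood cells, skin and hair follicle, nerve, melanocyte, cytotoxic cell, granulocyte and sex-linked transcripts, the extracellular proteinases and their inhibitors, and the endothelium. Members near background, whose differences are close to 0, pull some of these medians towards 0. Over members with a mean of at least 4 the median was -0.55 for hypoxia, 0.48 for the 2 red blood cell genes left, 0.28 for melanocytes and -0.28 for nerve. Over all members it was -0.56 for milk fat synthesis, and -0.29 there without BN H rat 5. It was 0.54 for B and plasma cells, 0.55 for T cells and 0.66 for lymph node stroma and follicles, and turned to -0.34, -0.14 and -0.35 without BN S rat 3. The lymph node median was 0.00 without BN H rat 5, the T cell median was 0.11 and the B cell median 0.28 without BN H rat 4, and the latter 2 were 1.04 and 1.33 without BN S rat 1. Over all genes it was 0.00, and -0.16 for genes whose probe set had a mean above 4. Of the endothelial genes, the sialomucin *Emcn* (9.62, 9.44 and 9.21 in S rats against 7.73 and 7.47 in H rats) and *Mmrn2* were higher in S with filtering and *Sox17*, an arterial transcription factor, was higher in H. Within the clock list the members split with filtering, *Cry1*, *Nfil3* and *Per3* being higher in S and *Tef* and *Bhlhe40* higher in H. *Igf1*, a growth factor made by the stroma, read 11.33, 11.56 and 11.05 in S rats against 10.14 and 10.05 in H rats (-1.22 ± 0.18, adjusted p = 0.0290 with filtering). Another probe set of *Igf1* was called over all probe sets (-1.105 ± 0.085, adjusted p = 0.0492, limma). With filtering *Ccnd1*, cyclin D1, was also higher in S (adjusted p = 0.0298) whereas *Myc* was higher in H (adjusted p = 0.0454).

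Of the 24 genes that the study named for their difference between strains, none was called between the BN series over all probe sets, where 1.14% of all genes were. All H values lay below all S values for 8 of them, where 23.5% of all genes, those near background included, had that order, and all H values above all S values for none. The median H minus S was -0.31, and it was -0.10 without BN H rat 5 and -0.54 without rat 4. *Spp1*, osteopontin, read 13.25, 13.22 and 13.98 in S rats and 13.40 and 13.06 in H rats, and *Lcn2*, lipocalin 2, read 13.14, 13.35 and 13.67 against 13.26 and 13.02. *Pgr*, *Areg* and *Wnt4*, the progesterone receptor and 2 paracrine factors, were below 4 in all 5 BN rats. *Timp1*, a metalloproteinase inhibitor, read 9.51, 10.09 and 10.82 against 9.21 and 8.34 (-1.36 ± 0.55, adjusted p = 0.386), without overlap. *Tnfsf11*, the paracrine factor RANKL, read 5.02, 3.11 and 2.70 against 5.14 and 5.02. With filtering, 5 of 20 were higher in S, where 8.39% of all genes were, and none higher in H, where 3.55% were. *Prlr*, the prolactin receptor, read 7.88, 8.63 and 9.40 against 6.27 and 5.31 (-2.85 ± 0.63, adjusted p = 0.0320), and *Gata3*, a luminal transcription factor, read 10.04, 10.54 and 10.21 against 9.18 and 9.13 (-1.11 ± 0.18, adjusted p = 0.0335). *Timp3*, another metalloproteinase inhibitor, read 10.78, 10.80 and 10.81 against 9.68 and 9.34 (-1.29 ± 0.12, adjusted p = 0.0208), *Cd44*, a hyaluronan receptor, read 8.78, 8.70 and 8.78 against 7.91 and 7.22 (-1.19 ± 0.25, adjusted p = 0.0395), and *Adam17*, a sheddase, read 9.87, 9.98 and 10.15 against 9.30 and 8.82 (-0.94 ± 0.20, adjusted p = 0.0486). *Prlr* in BN S rats therefore lay nearer to the ACI rats, which ran from 9.73 to 10.73, than it did in BN H rats.

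The same letters made little difference in ACI rats. Of 31042 probe sets, 25 were called between ACI H and ACI S rats, or 0.0805%, and 18 of these lay below 4 in all 5 ACI rats. An unadjusted p under 0.05 was reached by 1527 probe sets. Among probe sets whose mean was 4 or more, limma called 0, with 1259 at an unadjusted p under 0.05. Without ACI H rat 4 the count over all probe sets was 1524, and without ACI H rat 5 it was 738. The single probe set called in both strains was that of *Pcyox1*, prenylcysteine oxidase 1, which was higher in H in both. It read 8.89, 9.01 and 8.95 in BN S rats, 10.32 and 10.08 in BN H rats (1.25 ± 0.09, adjusted p = 0.0487), 9.62, 9.60 and 9.66 in ACI S rats and 10.33 and 10.36 in ACI H rats (0.72 ± 0.02, adjusted p = 0.0424).

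The difference between the strains in H minus S was tested directly, as the contrast of both differences over the 10 arrays. It was called at 856 probe sets (2.76%), of which 158 (0.509%) had the higher H minus S in BN rats and 698 (2.25%) the lower. Of the probe sets called in BN rats, 41 of 133 higher in H and 139 of 213 higher in S were among them. This contrast holds the BN difference by which the probe sets and the 24 genes above were chosen, so their calls in it partly restate that choice, and the ACI values are given instead. For the 10 genes higher in S with BN H levels above 4, H minus S in ACI rats ran from -0.18 for *Mtdh* to 0.67 for *Oxr1*. For the 12 higher in H it ran from -1.70 for *B3gat3* to 1.93 for *Swi5*, and no difference of the 24 genes was called in ACI rats. *Swi5* read 7.56, 7.68 and 7.08 in ACI S rats and 9.39 and 9.35 in ACI H rats, a difference of the same sign as in BN rats (adjusted p = 0.42). With the beta-actin 3′ minus 5′ gap of each array as a covariate over the 10 arrays, 36 probe sets were called between the BN series, against 2643 (8.51%) without it. Of 28 called genes, the 24 above and 4 list members, 1 remained called. The slope for this gap comes from differences between rats of the same group. Since the gap differs without overlap between the BN series, that slope moves BN H minus S differences, towards 0 or away from it. The skeletal muscle median went from 3.0 to -0.08 and the T cell median from 0.55 to 3.17. The drop in calls therefore cannot tell a technical part from any other difference that follows the letter.

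**Figure D5:**
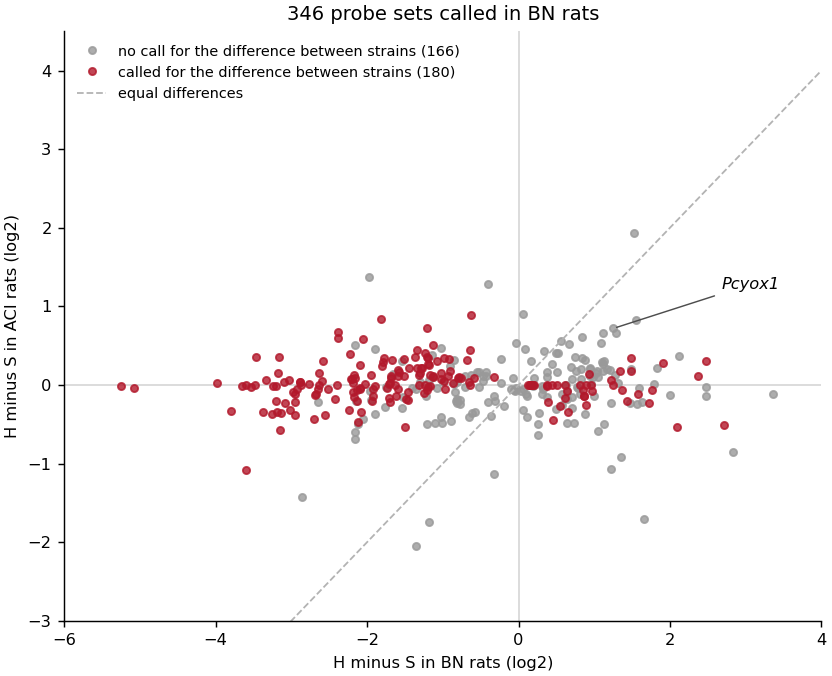
H minus S difference in BN rats (horizontal axis) against that in ACI rats (vertical axis), both on the log2 scale, for the 346 probe sets called in BN rats. Red points, 180 of them, were also called for a difference between strains, most points lie near 0 on the vertical axis, and *Pcyox1* is the one called in both strains.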

How the data were processed

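The authors scanned 1 array per rat and deposited log2 expression values made with GCRMA 2.18.1, according to the submitters' processing notes. The arrays that were normalized together are not given in the sources used here. Number of arrays, not depth, limits the precision. Of 31099 deposited probe sets, 57 controls were kept for quality readings only. The platform annotation gave 1 symbol to 20826 probe sets, of which 20758 were updated by gene ID from RefSeq (GRCr8), several to 436 and none to 9780. Each gene was read by the probe set whose mean over the 10 arrays was highest.

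H and S rats were compared with limma 3.58.1 (R 4.3.3, lmFit and eBayes, two-sided) within BN rats, within ACI rats and, for the difference between strains, over 4 group means. P-values were adjusted by Benjamini-Hochberg over all probe sets of the fit, or over those with a mean of at least 4 ("with filtering"). Values below 4 in a whole series were taken as near background, and folds against them were computed from 4 as a lower bound. The fits were tested on simulated data. Each value is from a separate rat, and the IDs and labels give no litter or hybridization round. The comparison, the 34 gene lists and the alternatives were chosen with earlier results of these data known. Named genes were the 12 with the largest called difference in each direction (higher series at least 6, no overlap), the called member of each list with the largest difference or else its brightest member, the genes named by the study and defining cell type markers. *Pcyox1*, *Zfp148*, *Ap3s1*, *Rbm39*, *Srpk2*, *Aplp2*, *Pabpn1* and list members described with filtering, other than those, fall outside the rule and were picked with their values in view.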

Additional observations from a re-analysis of the deposited data

Results flagged for a closer look

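For 20 of 98 named genes the H minus S difference of BN rats departed from that of ACI rats at an adjusted p under 0.05 in limma's contrast of both differences over 10 arrays. Over all 31042 probe sets 856 did, or 2.76%. The named genes were not drawn evenly from these, so the 2 shares cannot be compared. Values are the BN difference minus the ACI difference on the log2 scale. In 14 genes it was below 0, with -3.33 for *Synj1*, -3.09 for *Mdm4*, -3.05 for *Oxr1*, -2.90 for *Hspa13*, -2.89 for *Mast4*, -2.64 for *Mmrn1*, -2.60 for *Ankhd1*, -2.29 for *Clcn3*, -2.27 for *Luzp1*, -2.24 for *Mtdh*, -1.82 for *Pcna* and -0.84 for *Cox6c*. For the other 2, *Ikzf2* (-3.51) and *Nars2* (-2.85), every BN H and ACI value lay below 4, so these values have no exact size and no rank. In 6 genes it was above 0, with 0.98 for *Ndufb8*, 1.63 for *Phyh*, 1.82 for *Cat*, 2.17 for *Rnf25*, 2.26 for *Rab5c* and 2.63 for *Sertad3*. Of the 20 genes, 19 were also called between the BN series, the exception being *Pcna*. Most were chosen for their BN difference, which is part of this contrast. In ACI rats no difference of these genes was called. The wider 3′ minus 5′ gaps and lower control levels of the BN S arrays move with all of these differences, and their part in them was not tested gene by gene.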

How the results depend on the processing

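Between BN H and S rats 346 probe sets were called. The count was 2643 with 4 group means over 10 arrays, 718 after quantile normalization and 2776 with arrays centred on expressed probe sets. It was 166 with a floor at 4, 2007 with a mean of at least 4 and 25 with a trended and robust variance. With array weights it was 209, and with Student's test 32. Each covariate was added to the fit of 4 group means over 10 arrays, so its count stands beside 2643, not 346. That count was 2816 with the lymphocyte lists as a covariate. With the muscle list as a covariate it fell to 351, of which 141 were shared with the 346. Settings chosen after seeing the data gave 3741 with 4 group means and a mean of at least 4. They gave 36 with the beta-actin 3′ minus 5′ gap as a covariate, which follows the letter in BN rats. The count without _s_at, _x_at and _a_at probe sets, which may bind several genes, was 337, within 1.5 times of 346. Between ACI H and S rats 25 were called, and 0 after quantile normalization (1506 at an unadjusted p under 0.05), centring (2122), a mean of at least 4 (1259) or Student's test (1150). The count was 3 with the floor, 13 with the trended variance and 2 with group means and a mean of at least 4. With 4 group means it was 26, against 3 with the muscle list, 7 with the lymphocyte lists and 6 with the actin gap added as a covariate. For the difference between strains 856 were called, and 1890 after centring, 1969 with a mean of at least 4, 559 with the floor, 56 with the trended variance and 559 with array weights. Leaving out 1 rat, where the lone rat left in a series of H is assumed to vary like the others, gave 79 to 3199 in BN rats (118 without S rat 1, 79 without S rat 2, 158 without S rat 3, 3199 without H rat 4, 1204 without H rat 5), 8 to 1524 in ACI rats (9, 8 and 16 without S rats 1, 2 and 3, 1524 and 738 without H rats 4 and 5) and 237 to 4053 for the difference (426 without BN S rat 2, 4053 without BN H rat 4, 237, 265 and 2223 without ACI S rat 2, ACI S rat 3 and ACI H rat 4). The cause of these shifts was not tested. S and H rats share no replicate numbers, so a pairing exists only across strains, where numbers are names. A replicate block there left 43 calls for the difference between strains.

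Of 28 called genes named by the rule, 24 stayed called under quantile normalization, 27 under centring, 16 with the floor, 1 with the trended variance, 3 with Student's test and 1 to 24 when 1 BN rat was left out. With the actin gap as a covariate *B3gat3* (-0.22) and *Actr2-ps1* (-0.22) turned their direction. The skeletal muscle median went from 3.0 to -0.08 there and the collagen median from -0.79 to -0.48. Other list medians moved away from 0 with this covariate. That of T cells went from 0.55 to 3.17, of B and plasma cells from 0.54 to 2.36 and of adipocytes from 0.37 to 0.87. The macrophage median went from -0.30 to -0.79, the luminal from -0.09 to -0.54 and the basal from -0.11 to -0.51. Depth is not defined for arrays, and values near background carry no order.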
